A study of Mus musculus with 6 samples.

Results

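The constitutive proteasome genes were taken as every gene of the deposited count table whose symbol starts with Psma to Psmg followed by a digit, without the immunoproteasome subunits Psmb8, Psmb9 and Psmb10. The rule used names alone and no measured value, and found 48 of 18228 genes. Of these, 16 encode core particle subunits (Psma and Psmb), 20 carry Psmc or Psmd names and are called the regulatory particle genes, and 12 are others: activators, an inhibitor, dedicated assembly chaperones, and Psmc3ip and Psme3ip1. The last pair match the rule by their first letters but are named for other proteins. After the filter on low counts 46 members were tested. Psma8, a testis alpha subunit, had 1, 5 and 2 reads in aged mice against 4, 3 and 4 in young mice, and Psmb11, a thymus beta subunit, had 1, 2 and 1 reads in aged mice against 2, 0 and 1 in young mice, so neither was tested.

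RNA was sequenced from the hypothalamus of 3 mice aged 22 months (aged) and 3 mice aged 12 weeks (young), with 5 mice per age in the behavioural experiment from which they were drawn. All mice had food and water freely on a regular light cycle, and the labels give no strain, sex, genotype or agent that differs between the ages. Libraries were made from polyadenylated RNA with a stranded kit. The question was which hypothalamic genes differ in old mice with cognitive decline.

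The proteasome degrades proteins that carry ubiquitin chains. Its core particle is a barrel in which alpha rings gate the entrance and inner beta rings hold the cutting sites, which belong to Psmb5 (chymotrypsin-like), Psmb6 (caspase-like) and Psmb7 (trypsin-like). The regulatory particle caps the barrel: its ATPases unfold the substrate and its non-ATPase subunits bind ubiquitin chains and remove them. In mammalian cells whose proteasome is inhibited, the transcription factor Nfe2l1 raises the subunit genes together through antioxidant response elements, bound with a small Maf partner.

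Each library held 17208291 to 18884403 counted reads. All 12 genes of a list of hypothalamic markers, drawn up after the first results, were detected. They summed to 1496 to 1581 CPM (reads scaled to library total and TMM factors) in aged mice and 1500.0 to 1655 CPM in young mice. Of these markers, Avp was higher and Hcrt lower in aged mice. By edgeR 9 of 12 had an unadjusted p under 0.05, so the close sums do not mean that the markers were matched. Over all 14702 tested genes, 3.22% were called higher, 3.64% lower, and 26.2% had an unadjusted p under 0.05. Of the neuronal markers 0 of 12 passed the test (1 at an unadjusted p under 0.05), with 6075 to 6345 CPM in aged and 6121 to 6639 CPM in young mice. Among 8 astrocyte markers 3 were lower, with 2009 to 2884 CPM in aged and 3267 to 3508 CPM in young mice, and among 10 microglial markers 3 were higher and 1 lower, with 432 to 474 CPM in aged and 381 to 399 CPM in young mice. Markers of cortex and thalamus neurons, which border the dissected region, summed to 129 to 146 CPM in aged and 168 to 362 CPM in young mice, with 2 of 7 lower. Among 6 markers of pericytes and smooth muscle 2 were lower, with 141 to 173 CPM in aged and 204 to 237 CPM in young mice. In 5 of these 6 and in 5 of 8 astrocyte markers every aged library lay below every young one, beside 16.2% of all tested genes. The reverse order held in 7 of 10 microglial markers, beside 15.5% of all tested genes. Among 8 endothelial markers 1 was higher and 3 lower, with 355 to 414 CPM in aged and 294 to 353 CPM in young mice. Oligodendrocyte and red blood cell markers had 0 of 8 and 0 of 5 passing by edgeR (2 and 0 at an unadjusted p under 0.05), with 6987 to 7257 and 79.4 to 251 CPM in aged mice, against 6316 to 8032 and 91.0 to 183 CPM in young mice. Of 5 T cell markers 4 were found and 0 had enough reads to be tested. None of the markers found was at 0 in all libraries, and the part of these differences in the results below was not tested. In bulk tissue, fewer cells of a type and less RNA per cell cannot be told apart. Summed reads of Y-linked genes were 3617, 3540 and 3394 in aged mice against 32, 24 and 31 in young mice. The labels give no sex, but such reads mark the aged mice as male and the young mice as female. Every difference between aged and young mice below is also one between the sexes, and age and sex cannot be told apart.

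Of the 46 tested members, 4 rose in aged hypothalamus and 0 fell: Psmb6, Psmb1, Psmd13 and Psmc6. That is 8.7% of the members, beside 3.22% of all 14702 tested genes called higher and 3.64% called lower (6.86% in either direction). The members are short genes (median 1446 bases), and larger shares of short genes were called higher. These were 6.87% of tested genes of 206 to 1427 bases and 4.9% of those of 1427 to 2014 bases. The changes were small. Levels are CPM normalised by TMM factors, and fold changes are on the log2 scale, aged over young, with their standard error (SE) and adjusted p from edgeR's quasi-likelihood test. The log2 fold change was above 0 in 43 of 46 members, with a median of 0.13, beside a median of -0.0035 over all tested genes, of which 49.2% lay above 0. An unadjusted p under 0.05 was reached by 12 members, all higher, beside 12.6% of all genes on the higher side and 26.2% in either direction. In 20 members (43.5%) every aged library lay above every young one, beside 15.5% of all tested genes. The 4 calls depended on which libraries were included. Without aged replicate 1, aged replicate 3, young replicate 1 or young replicate 3 no member was called by edgeR, with 8 to 15 still higher at an unadjusted p under 0.05, while the share of all genes called higher was 0.64% to 1.22%. Without young replicate 2 there were 2 calls (Psmb6 and Psmd13). Without aged replicate 2 there were 6, the same 4 with Psma1 and Psmd4.

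Fold changes in the alpha ring were small and close to each other. All 7 tested alpha subunits had a fold change above 0, with a median of 0.19 and a range of 0.12 to 0.26, and 0 of 7 passed edgeR's test (5 at an unadjusted p under 0.05). DESeq2 called 1 of them, Psma1. In all 7 every aged library lay above every young one. That order held in 15.5% of all tested genes, in 28.5% of those of 206 to 1427 bases and in 22.8% of those of 1427 to 2014 bases. Psma1 stood at 71.3, 63.6 and 71.5 CPM in aged mice, against 56.0, 58.7 and 57.9 CPM in young mice. Its groups did not overlap, and its log2 fold change of 0.26 ± 0.068 (SE) lay just outside the threshold (adjusted p = 0.0516). Psma2 averaged 81.1 ± 1.38 CPM in aged and 69.8 ± 5.71 CPM in young mice (SD, n = 3 each; adjusted p = 0.0921). Psma7 averaged 71.9 ± 2.10 CPM in aged and 63.3 ± 3.20 CPM in young mice (SD, n = 3 each; adjusted p = 0.109). The smallest alpha difference was that of Psma4, 0.12 on the log2 scale (adjusted p = 0.227).

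In the beta ring 2 of 7 tested subunits rose, the caspase-like Psmb6 and Psmb1, a structural subunit that does not cut. Psmb6 stood at 120.0, 118 and 122 CPM in aged mice, against 95.3, 103 and 103 CPM in young mice. Every aged library lay above every young one, with young replicate 1 the lowest. The fold change was 0.26 ± 0.059 (SE) on the log2 scale (adjusted p = 0.0336). Psmb1 stood at 121, 116 and 118 CPM in aged mice, against 95.5, 101 and 105 CPM in young mice. Every aged library again lay above every young one, with young replicate 1 the lowest, and its log2 fold change was 0.24 ± 0.059 (adjusted p = 0.0398).

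The remaining cutting subunits did not pass the test. Psmb7 stood at 99.0, 114 and 104 CPM in aged mice, against 83.6, 97.0 and 93.6 CPM in young mice (0.21 ± 0.078, adjusted p = 0.129). Psmb5 stood at 65.6, 72.7 and 64.0 CPM in aged mice, against 55.1, 68.8 and 62.1 CPM in young mice (0.12 ± 0.089, adjusted p = 0.425). The groups of Psmb5 overlapped: young replicate 2 lay above aged replicates 1 and 3. The structural subunits Psmb2, Psmb3 and Psmb4 had log2 fold changes of 0.13, 0.19 and 0.15, with adjusted p-values of 0.311, 0.254 and 0.212. Across the whole core particle the median was 0.19, and 10 of 14 tested members (71.4%) had groups that did not overlap, with aged above. The share was 15.5% over all tested genes and 28.5% over those of 206 to 1427 bases. After removal of the gene length trend, described below, it was 2 of 14 core members (14.3%), beside 14.0% of all genes.

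**Figure D1:**
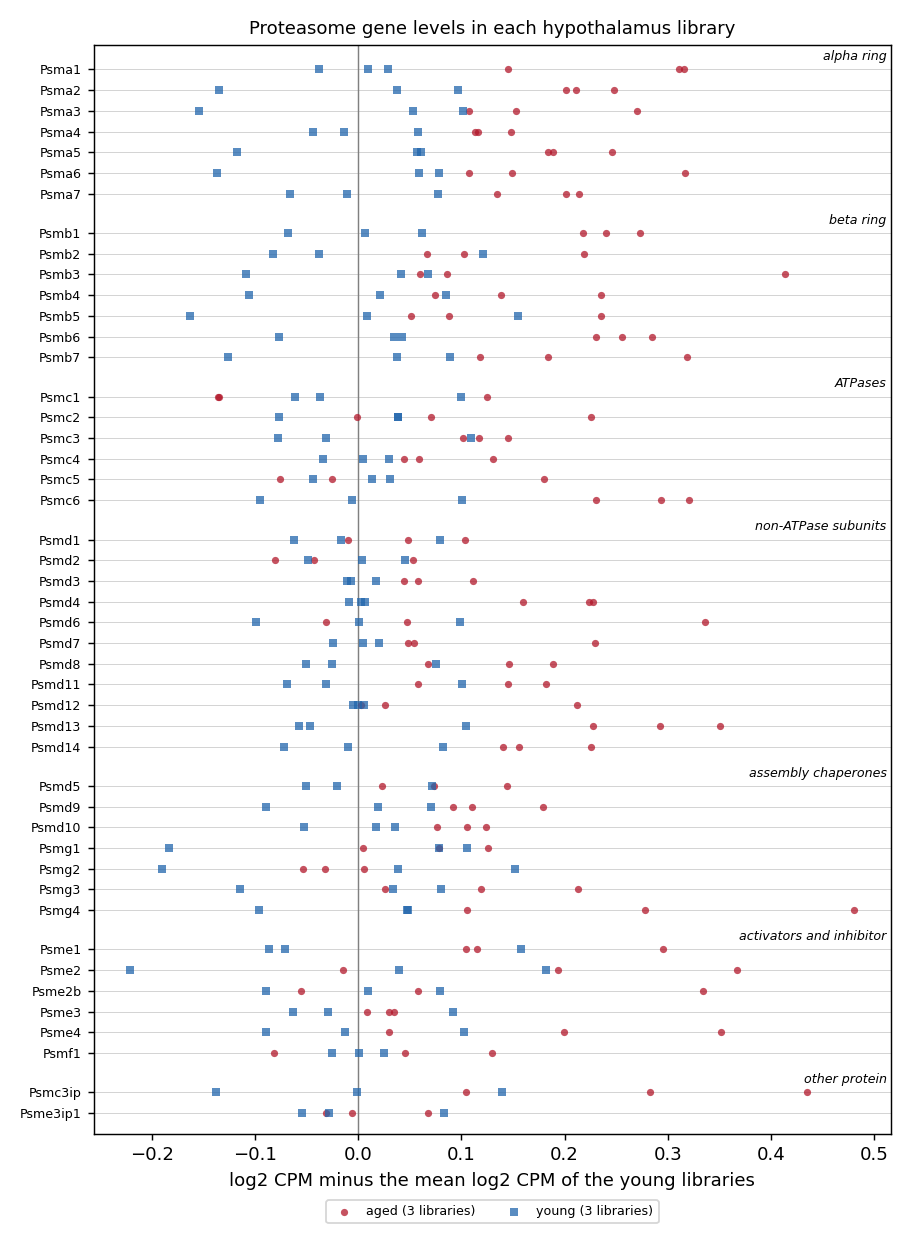
Level of each of the 46 tested members in each library, as log2 CPM minus the mean of the young libraries, with aged libraries as red circles and young libraries as blue squares. All 14 core members lie above the young mean in each aged library, and young replicate 1 lies below it in all 14.

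In the regulatory particle the fold changes were more spread. Of its 6 ATPases, which form the unfolding ring, 1 rose. Psmc6 stood at 68.0, 65.1 and 69.3 CPM in aged mice, against 59.5, 55.3 and 52.0 CPM in young mice. All aged libraries lay above all young ones, and the log2 fold change was 0.28 ± 0.069 (adjusted p = 0.0441). The other five ATPases did not pass. Psmc3 and Psmc2 had log2 fold changes of 0.12 and 0.10, with adjusted p-values of 0.27 and 0.421. Psmc1 stood at 118, 141 and 118 CPM in aged mice, against 124, 138 and 126 CPM in young mice. Aged replicate 2 was its highest library and aged replicates 1 and 3 its lowest, and its log2 fold change of -0.045 had a 95% interval of -0.23 to 0.14. That interval and the interval of Psmc6, 0.12 to 0.44, overlap, and the difference between the 2 ATPases was not tested.

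Of the 11 non-ATPase subunits 1 rose, Psmd13, a scaffold subunit of the lid. Psmd13 stood at 74.8, 68.7 and 71.9 CPM in aged mice, against 56.8, 63.1 and 56.4 CPM in young mice. Every aged library lay above every young one, and the log2 fold change was 0.29 ± 0.069 (adjusted p = 0.0392). Psmd4, a ubiquitin receptor, stood at 138, 137 and 131 CPM in aged mice, against 117, 118 and 118 CPM in young mice. Its groups did not overlap, and the young libraries lay close together, yet in edgeR's test 0.20 ± 0.054 lay just outside the threshold (adjusted p = 0.0514), while DESeq2 called it. Psmd14, the deubiquitinase that removes the chain as the substrate enters, averaged 67.5 ± 2.14 CPM in aged and 59.9 ± 3.22 CPM in young mice (SD, n = 3 each; 0.17 ± 0.066, adjusted p = 0.132). The large scaffolds Psmd1 and Psmd2 stayed near 0, at 0.047 and -0.023 on the log2 scale, with 95% intervals of -0.089 to 0.18 and -0.15 to 0.11. Over the 11 the median was 0.12, and 5 had groups that did not overlap, with aged above. The share was 15.5% over all tested genes and 22.8% over those of 1427 to 2014 bases.

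The upstream sequences below are shown because 3 of the 4 members that rose could be matched to a promoter table, and Psmc1 stands beside Psmc6 as an ATPase whose level did not pass the test. Each is the 250 bases before the annotated start, from RefSeq on build GRCm38.p6, all on the plus strand, with capitals marking a TGACNNNGC match (the core of the antioxidant response element) or a CCAAT box on either strand.
Psmb6 (chr11:70525107-70525356): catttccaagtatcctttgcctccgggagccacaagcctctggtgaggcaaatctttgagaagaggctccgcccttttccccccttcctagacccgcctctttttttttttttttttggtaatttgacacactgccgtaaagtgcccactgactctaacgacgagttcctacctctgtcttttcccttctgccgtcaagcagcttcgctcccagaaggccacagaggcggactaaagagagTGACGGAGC
Psmc6 (chr14:45329574-45329823): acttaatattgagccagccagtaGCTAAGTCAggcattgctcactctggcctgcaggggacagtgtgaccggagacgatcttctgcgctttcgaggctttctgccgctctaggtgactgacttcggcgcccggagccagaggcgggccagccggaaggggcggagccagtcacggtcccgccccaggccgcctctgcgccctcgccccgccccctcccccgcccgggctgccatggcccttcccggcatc
Psmd13 (chr7:140882144-140882393): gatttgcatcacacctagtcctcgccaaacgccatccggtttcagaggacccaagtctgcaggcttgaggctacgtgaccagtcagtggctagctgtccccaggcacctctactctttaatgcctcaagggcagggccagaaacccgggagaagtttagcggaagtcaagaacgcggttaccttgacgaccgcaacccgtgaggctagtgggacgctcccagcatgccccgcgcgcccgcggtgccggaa
Psmc1 (chr12:100109952-100110201): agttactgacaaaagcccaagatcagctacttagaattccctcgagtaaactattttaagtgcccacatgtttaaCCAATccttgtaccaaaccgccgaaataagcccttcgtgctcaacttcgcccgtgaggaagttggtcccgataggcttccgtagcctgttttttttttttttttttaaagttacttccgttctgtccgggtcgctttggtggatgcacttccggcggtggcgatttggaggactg

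The Psmb6 match began 9 bases before the start and the Psmc6 match, on the minus strand, lay 227 bases before it. Psmd13 held neither motif, and Psmc1 held a CCAAT box 175 bases before the start. Promoters were found for 40 of 48 members, and Psmb1 was not among them. A TGACNNNGC match on either strand was present in 5 of the 40 (12.5%): Psmb5, Psmb6, Psmc6, Psmd9 and Psmd12. The same letters were present in 13.8% of 11665 tested genes and in 11.5% of all 27025 genes of the promoter table. CCAAT was present in 15 of 40 members (37.5%), beside 40.3% of tested genes, and in 58.3% of 12 core, 29.4% of 17 regulatory particle and 27.3% of 11 other members. Neither motif contains the other, and a match describes these letters only.

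Of the 7 assembly chaperones, which help build the core (Psmg1 to Psmg4) or the base of the regulatory particle (Psmd5, Psmd9, Psmd10), 0 passed by edgeR or DESeq2, and 0 reached an unadjusted p of 0.05. Psmg4 had the largest log2 fold change of any member, 0.30 ± 0.15, and stood at 11.1 ± 1.55 FPKM (fragments scaled to gene length and library total) in aged and 8.85 ± 0.553 FPKM in young mice (SD, n = 3 each; adjusted p = 0.229). It is also the shortest member, at 554 bases. After removal of the gene length trend, described below, its value was 0.13 (edgeR adjusted p = 0.597) and no longer the largest. Psmd9 and the X-linked Psmd10 had 0.13 and 0.10, with adjusted p-values of 0.319 and 0.483. Psmg2 stood at -0.034, with a 95% interval of -0.28 to 0.21.

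Of the 6 activators and inhibitor genes 0 passed by edgeR or DESeq2, again with 0 at an unadjusted p under 0.05. Psme1 and Psme2, the interferon-induced activator that opens the core without ATP, had log2 fold changes of 0.17 and 0.18 (adjusted p = 0.253 and 0.402). Psme2b is a close copy of Psme2, and how reads were divided between them is not given in the sources used here, so both values are uncertain. Psme4, an activator known from acetylated histone turnover, had 0.20 ± 0.091 (adjusted p = 0.203). The nuclear activator Psme3 and the inhibitor Psmf1 had 0.023 and 0.034, with 95% intervals of -0.11 to 0.16 and -0.13 to 0.20. Of the 2 genes that match by letters only, Psmc3ip, a meiotic recombination factor, had 0.27 ± 0.21 (adjusted p = 0.454), and Psme3ip1 had 0.0095 ± 0.071 (adjusted p = 0.951).

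The members are short genes, and short genes as a class were higher in these aged libraries. The median length of tested members was 1446 bases, with a range of 554 to 7649, against 3693 bases over all tested genes. In the shortest of 10 length classes of all tested genes (206 to 1427 bases) the median log2 fold change was 0.11 and 28.5% of genes had all aged libraries above all young ones. In the longest class the median was -0.12 and that share was 4.42%. The share called higher was 6.87% in the shortest class, 4.9% in the next and 0.68% in the longest. Within each length class a member can be set against genes of its own length. Of 46 members, 40 lay above the median of their class, where 50% of all genes lie by definition. The members share the same 6 libraries, so these are not 40 independent outcomes. Among the members themselves, fold change ran against log2 length with Pearson's r = -0.309 and Spearman's rho = -0.332, a description over 46 genes that share the same 6 libraries.

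**Figure D2:**
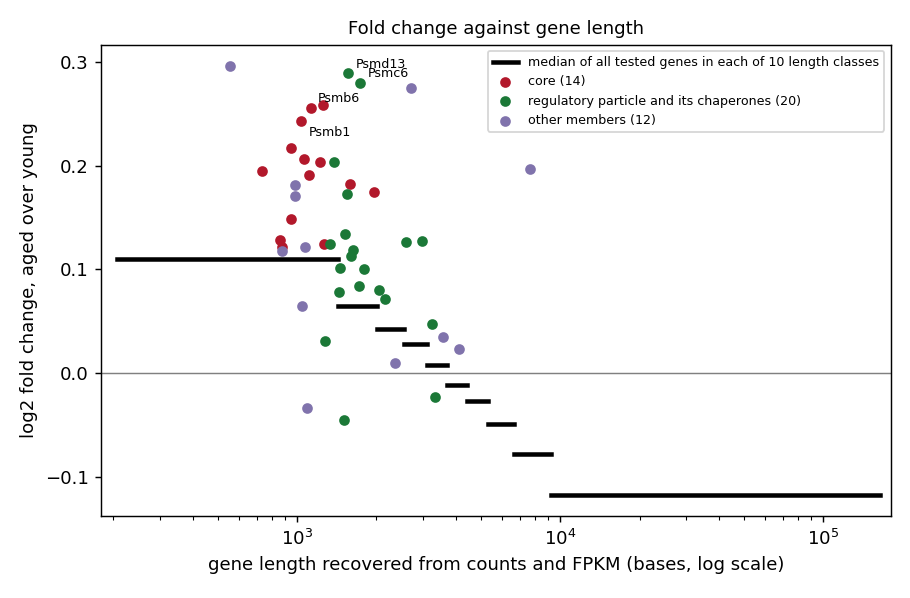
Log2 fold change (aged over young) against gene length in bases on a log axis, for core, regulatory particle and other members as coloured points, with black lines at the median of each of 10 length classes of all tested genes. The shortest class has a median of 0.11 and the longest of -0.12.

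When the trend of each library's counts on gene length was removed before the test, 0 members passed (2.61% of all genes were still called higher and 2.39% lower). The median of the members was then 0.036, beside -0.0057 over all genes, and 36 of 46 members lay above 0. Psmb6 had 0.15 (adjusted p = 0.163), Psmb1 0.13 (0.217), Psmd13 0.21 (0.134) and Psmc6 0.20 (0.145), all on the log2 scale with adjusted p-values in parentheses. Groups that did not overlap, with aged above, numbered 6 of 46 members (13%), beside 14.0% of all genes. In the core they numbered 2 of 14 (14.3%) and in the regulatory particle 3 of 20 (15%). Over the core the median was 0.094 and over the regulatory particle 0.029. The long gene Psme4, at 7649 bases, had a higher value after the trend was removed, 0.26 (adjusted p = 0.106). The trend, taken as the shortest minus the longest class in log2 CPM, was 0.083, 0.19 and 0.067 in aged mice, against -0.16, -0.16 and -0.019 in young mice.

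**Figure D3:**
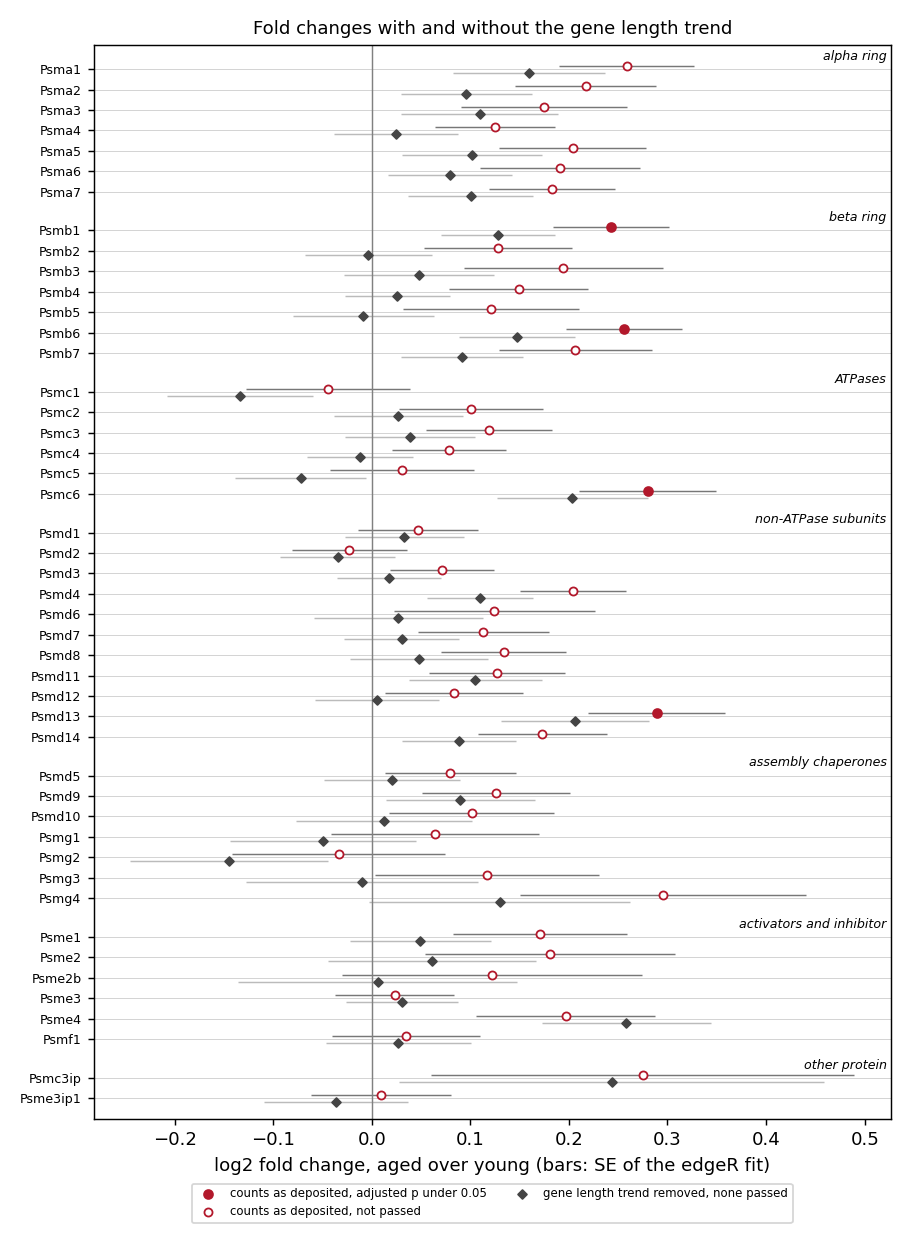
Log2 fold change, aged over young, of the 46 tested members grouped by role, with bars of 1 SE from edgeR. Circles are the counts as deposited, filled for the 4 members past the threshold, and grey diamonds are the same after removal of the gene length trend, where 0 passed. Circles lie above 0 in 43 of 46 members and diamonds in 36.

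Levels compared per length (FPKM) placed Psmb4, a structural beta subunit, highest, at 130.5 ± 8.36 FPKM in aged and 115 ± 8.75 FPKM in young mice (SD, n = 3 each). Psmc5, Psmb1 and Psmb6 came next and averaged 113, 106 and 98.3 FPKM over the 6 libraries. In aged mice Psmc5 (115 ± 12.1 FPKM) and Psmb1 (116 ± 1.29 FPKM) did not differ beyond their spread, and Psmb6 (108 ± 1.56 FPKM) lay below Psmb1 (SD, n = 3 each). Psmc3ip was lowest at 0.578 FPKM, after Psme2b at 4.64 and Psme4 at 7.37 FPKM. Median FPKM was 74.7 in the core, 51.5 in the regulatory particle and 11.2 in the others. Summed over members, the core held 1044, 1120 and 1046 FPKM in aged mice, against 852, 941 and 962 FPKM in young mice, a ratio of means of 1.17. The regulatory particle held 1056, 1136 and 1054 FPKM in aged mice, against 969, 1009 and 994 FPKM in young mice, a ratio of 1.09. Core over regulatory particle was 0.988, 0.986 and 0.992 in aged mice, against 0.879, 0.933 and 0.967 in young mice. The 3 aged ratios lay close together and above all young ratios, among which young replicate 1 was the lowest. The gene length trend was not removed from these sums. Core members are shorter, with a median of 1080 bases against 1617.5 in the regulatory particle, and the part of the trend in the ratio was not tested. The regulatory particle sum also includes the chaperones Psmd5, Psmd9 and Psmd10.

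The immunoproteasome subunits replace the cutting subunits of the core in immune cells and after interferon. Psmb8, which takes the place of Psmb5, stood at 4.65, 7.996 and 5.94 CPM in aged mice, against 2.70, 3.16 and 2.84 CPM in young mice. All aged libraries lay above all young ones, and the log2 fold change was 1.10 ± 0.21 (adjusted p = 0.0205; 0.99 with an adjusted p of 0.0282 after removal of the length trend). The aged libraries differed among themselves by more than the young ones, with aged replicate 2 highest. The same library had 60 reads of the T cell gene Cd8a, against 1 and 6 in the other aged libraries and 1, 1 and 0 in young ones. Without aged replicate 2 Psmb8 had a log2 fold change of 0.88 (adjusted p = 0.0214). The call was lost without aged replicate 3 (0.0666), young replicate 1 (0.0694) or young replicate 3 (0.0625). The part of T cells in these values was not tested. Psmb9, at 0.52 ± 0.24, and Psmb10, at 0.11 ± 0.077, did not pass (adjusted p = 0.2 and 0.379).

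Per length, Psmb8 stood at 5.05%, 7.83% and 6.61% of the Psmb5 level in aged mice, against 3.48%, 3.27% and 3.25% in young mice. The log2 difference was 0.94 and the 2-sided exact permutation p = 0.1 (0.15 adjusted over the 3 pairs), the smallest this design allows. Psmb9 stood at 1.80%, 2.41% and 1.48% of Psmb6 in aged mice, against 1.43%, 1.80% and 1.48% in young mice, where the groups overlapped (0.25 on the log2 scale, exact permutation p = 0.3, adjusted 0.3). Psmb10 stood at 23.2%, 22.9% and 23.2% of Psmb7 in aged mice, against 27.5%, 23.3% and 23.3% in young mice (-0.095 on the log2 scale, exact permutation p = 0.1, adjusted 0.15). That last difference came to -0.01 without young replicate 1.

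**Figure D4:**
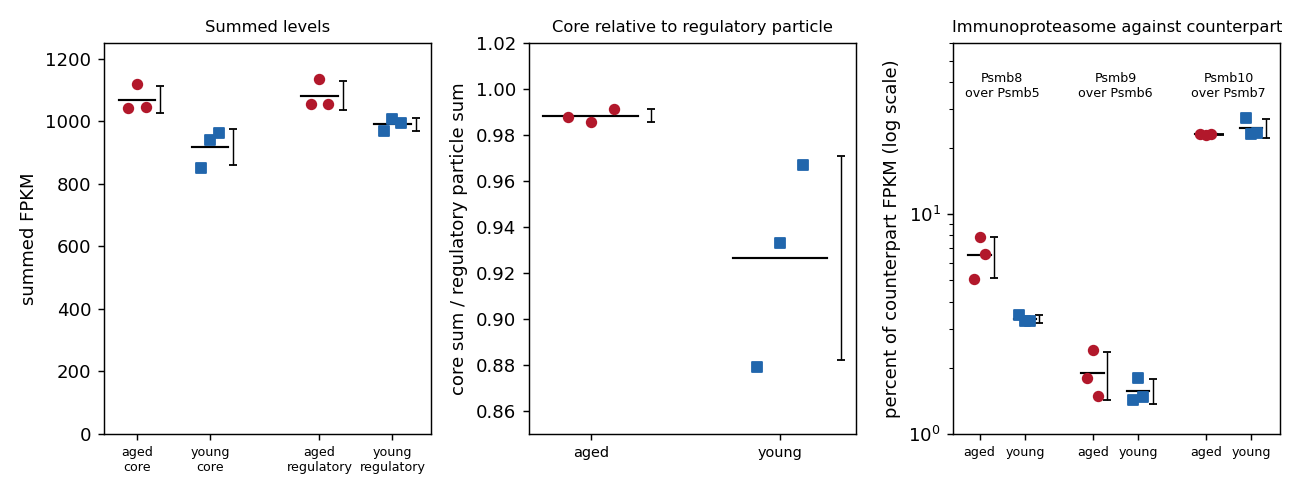
Left, FPKM summed over core and over regulatory particle members in each library; middle, the core sum over the regulatory particle sum; right, each immunoproteasome subunit as a percent of its counterpart's FPKM on a log axis. Points are libraries (aged red circles, young blue squares), lines are means and bars 1 SD over 3 libraries. The aged ratios of core to regulatory particle sit between 0.986 and 0.992, above all young ratios. The gene length trend was not removed from these values.

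Ubb, a polyubiquitin gene, rose. It stood at 1868, 1699.8 and 1885 CPM in aged mice, against 1504, 1550.2 and 1536 CPM in young mice (0.25 ± 0.06, adjusted p = 0.0387; 0.159 after removal of the trend). Its groups were apart, but it kept its call only without aged replicate 2, with adjusted p-values of 0.0646 to 0.157 when any other library was left out.

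Of 15 regulators of proteasome genes 2 rose, both small Maf proteins, which pair with Nfe2l1 and Nfe2l2 and lack an activating domain. Maff stood at 18.8, 8.62 and 23.6 CPM in aged mice, against 1.82, 2.07 and 1.45 CPM in young mice. Every aged library was above every young one, with aged replicate 2 the lowest of the aged, and the log2 fold change was 3.25 ± 0.37 (adjusted p = 0.00345). Mafk stood at 21.8, 23.7 and 25.2 CPM in aged mice, against 19.2, 15.6 and 18.1 CPM in young mice (0.42 ± 0.10, adjusted p = 0.0376; 0.0305 after removal of the length trend). Maff passed without any of the 6 libraries in turn (adjusted p 3.55e-05 to 0.0191), and Mafk only without aged replicate 2 (0.0478; 0.0633 to 0.144 otherwise). Nfya, a CCAAT-box subunit, had 0.43 (adjusted p = 0.0502, just outside the threshold). It was called higher in 9 of 19 alternatives, DESeq2 among them (0.0196), with adjusted p-values of 0.0137 to 0.177 over all 19, so that DESeq2 called 3 of the 15. Nfe2l1 itself had -0.024 ± 0.056 (adjusted p = 0.829). The median of the 15 was 0.083, the lowest value was -0.42, and 10 of 15 lay above 0. By edgeR 5 of 15 reached an unadjusted p under 0.05, beside 26.2% of all tested genes, of which 3.22% were called higher.

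In the remaining lists of the pathway 0 genes passed in either direction by edgeR, DESeq2 or limma-voom. Limma on log2(FPKM + 1) called 1 of the associated genes and 2 of the conjugating enzymes higher. Of 15 proteasome-associated and assembly genes found of 16 listed, 1 reached an unadjusted p under 0.05, with a median of 0.068. The regulatory particle subunit Sem1 had 0.28 (adjusted p = 0.0631), the ubiquitin receptor Adrm1 0.12 (0.279) and the proteasome adaptor Ecpas 0.12 (0.292). Of 14 substrate shuttles and unfoldase genes 2 reached an unadjusted p under 0.05, with a median of 0.022, and Nsfl1c, Ufd1 and Ubxn4, which work with the unfoldase Vcp, had 0.17, 0.16 and 0.15 (adjusted p = 0.0895, 0.138 and 0.203). Of 30 tested ubiquitin-activating and conjugating enzymes 5 reached an unadjusted p under 0.05, with a median of 0.038. The conjugating enzymes Ube2e2, Ube2g2 and Ube2s had 0.22, 0.22 and 0.17 (adjusted p = 0.0521, 0.0918 and 0.113).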

How the data were processed

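RNA was measured in hypothalamus tissue from 3 aged and 3 young mice, with 1 library per mouse. The deposited table holds raw read counts per gene made by the authors and, beside it, the authors' FPKM values (counts per gene length and library total). Per the submitters' processing notes, the tools were Trimmomatic, HISAT2, Cufflinks, HTSeq and DESeq, on build GRCm39. No source used here gives the annotation or strand setting of the counting, so reads of overlapping or near-identical genes could have been divided or dropped.

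Counts were tested, aged against young, with edgeR 4.0.16 (R 4.3.3, quasi-likelihood, TMM factors, filterByExpr with minimum count 10 and minimum total 15), which kept 14702 genes with 99.9% of counts. The threshold was an adjusted p of 0.05 (Benjamini-Hochberg over all tested genes). Gene length was recovered from counts and FPKM (largest relative error 2.9e-07). The length trend was removed with a loess fit per library (span 0.3). The script was tested on 1 simulated set of counts with 200 changed genes. At the same threshold it called 10% of 50 genes changed 1.2-fold, and 13.2% of all its calls were false. A further simulated set without changed genes gave 0 calls. The set with changes held no length trend and fewer changed genes than the 1009 called in these data. Its shares therefore need not hold for the members. The 4 member calls were 1.18 to 1.22-fold. Alternatives were other scalings and filters, DESeq2 1.42.0, limma 3.58.1 (voom, or log2 of FPKM plus 1 or 0.1), the replicate block, trend removal and leaving out each library. FPKM sums and ratios have no pseudocount.

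Named genes are every passing member, the 3 smallest unadjusted p-values per role and per related list, the cutting and immunoproteasome subunits, and the highest and lowest FPKM. A few genes that this rule takes are not reported here. Psmc1, Psmc5, Psmb2, Psmb3, Psma4, Psmd1, Psmd2, Psmg2, Psme2b, Psme3, Psmf1, Nfe2l1, Cd8a, Avp and Hcrt fall outside that rule and were named after their values were seen. The members and lists were chosen with earlier results of these data known.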

Additional observations from a re-analysis of the deposited data

How the results depend on the processing

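Of 46 members, 4 rose and 0 fell; 4 to 6 rose under other scalings, filters and tools, 4 with the replicate block, and 0 to 6 without each library in turn. With the length trend removed 0 rose, also with the block or without young replicate 1. The members' median log2 fold change of 0.13 came to 0.0361 with the trend removed, 0.0371 with the block and trend removal, and 0.0366 without young replicate 1 and the trend. Psme3ip1 reversed to -0.0365 (trend removed), -0.0362 (block and trend), -0.0119 (without aged replicate 1), -0.00928 (without young replicate 1) and -0.0642 (without young replicate 1 and the trend), with -0.0119 to 0.0586 without each library. Psmb5 reversed to -0.00849, -0.00662 and -0.0464 under those 3 trend settings, and Psme2 (-0.00629) and Psmc2 (-0.00188) in the last. None of these passed, and the cause was not tested. The combined setting without young replicate 1 and the trend was chosen after seeing the data, and Psmb8 missed the threshold in it (adjusted p = 0.0863).

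Of all genes, 474 rose and 535 fell. Leaving out each library gave 95 to 901 higher and 55 to 732 lower, limma on log2 FPKM 293 and 303 lower, trend removal 351 lower, and trend removal without young replicate 1 111 higher and 82 lower. Related lists had 5 higher and 0 lower: 8 higher with total counts, upper quartile factors or log2(FPKM + 0.1), 1 without young replicate 1 and the trend, and 1 to 12 without each library, with 1 lower under the trend, the block or both, and 0 to 1 without each library. Log2 ratios to counterparts ranged from 0.79 to 1.11 (Psmb8), 0.06 to 0.41 (Psmb9) and -0.14 to -0.01 (Psmb10) without each library. Deviations of same-numbered libraries correlated at 0.0953, 0.0374 and -0.138, beside -0.116 to 0.0894 for differently numbered ones. No pairing by number was seen, but 3 libraries per group cannot exclude it. The block gave 523 higher and 667 lower genes and 4 members higher. Its exact sign-flip test gave p = 0.25 for each of the 3 ratios, the smallest that 3 replicate pairs allow.

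With 3 mice per group, changes of the members' size lie near the threshold, and Psma1 and Psmd4 lie just outside it. Psmb8 rests on 83, 154 and 103 reads in aged mice and 46, 55 and 51 in young mice, and Psmb9 on fewer.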

Other observations

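Autophagy, the other main route of protein breakdown, was described with the same test over a list of 27 genes. By edgeR 0 of the 27 passed in either direction (1 higher and 0 lower by DESeq2), with 4 at an unadjusted p under 0.05 and a median log2 fold change of 0.027, beside -0.0035 over all tested genes. Sqstm1, the receptor that carries ubiquitinated cargo to autophagosomes, stood at 735, 694 and 763 CPM in aged mice, against 644, 635 and 631 CPM in young mice. All aged libraries lay above all young ones, with 0.20 ± 0.056 on the log2 scale (SE; adjusted p = 0.0631). Wipi1, which binds the forming membrane, had -0.34 ± 0.093 (adjusted p = 0.0575), and Atg16l1 had 0.22 ± 0.07 (adjusted p = 0.0849). After removal of the gene length trend, Sqstm1 (adjusted p = 0.0388) and Wipi1 (adjusted p = 0.0433) passed, Sqstm1 higher and Wipi1 lower.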
